A study of Mus musculus with 22 samples.

Results

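Cardiac transcription factors were followed as 10 genes, Nkx2-5, Gata4, Gata6, Mef2c, Tbx5, Hand1, Hand2, Isl1, Srf and Myocd, picked by name from the 48709 genes that both count tables hold. All 10 have a row in each table. RNA came from heart ventricles of mouse embryos at E13.5. The first experiment compared LIN9 wt with LIN9 KO, with Sav1, which the titles do not name, taken as wild-type in both. The second combined LIN9 wt or KO with Sav1 wt or KO in 4 genotypes. Each of the 6 groups had 3 libraries, 18 in all. Every embryo carried Nkx2.5-Cre, which recombines Lin9 at exon 7 and Sav1 at exon 3 where these are floxed. LIN9 wt is Lin9 fl/+ by the published description and wild-type by the labels. The Cre line is known as an insertion into the Nkx2-5 gene itself, so the driver sits at the locus of a gene described here, in the controls as well. Cells of the ventricle that never expressed Cre keep both target genes. Total counts were 9485599 to 9615274 per library in the first experiment and 2770741 to 2999877 in the second. The labels say that RNA was taken in triplicates and not whether these are separate embryos, so a p-value measures the spread between these samples. A legend of the paper speaks of biological replicates of the LIN9 comparison that were each done in triplicate, which reads as if each experiment were a single biological replicate.

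Heart muscle identity rests on a small set of DNA-binding proteins that switch on one another and share target genes. NKX2-5, GATA4, GATA6, TBX5 and MEF2C act together at the promoters and enhancers of contractile and hormone genes, HAND1 and HAND2 pattern the ventricles, ISL1 marks progenitors of the second heart field, and myocardin (Myocd) works by binding SRF. LIN9 is a subunit of the MuvB complex, which acts at cell cycle promoters, and SAV1 is a scaffold of the Hippo kinases that restrain YAP.

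The targeted genes were read first, as CPM, counts scaled to a common library total after TMM normalization. In the first experiment Lin9 was at 29.8, 21.4 and 25.6 CPM in LIN9 wt and at 21.4, 21.3 and 19.2 in LIN9 KO. In the second it was at 29.2, 28.1 and 23.2 in LIN9 wt Sav1 wt, at 13.1, 15.4 and 17.9 in LIN9 KO Sav1 wt, at 19.2, 31.4 and 25.6 in LIN9 wt Sav1 KO and at 23.5, 26.0 and 18.5 in LIN9 KO Sav1 KO. Only in LIN9 KO Sav1 wt did Lin9 pass the threshold, with a log2 fold change of -0.80 (SE 0.192, edgeR adjusted p = 0.00269), against -0.31 (adjusted p = 0.13) in the first experiment and -0.16 (adjusted p = 0.586) in Sav1 KO. Sav1 was at 54.5, 56.2 and 61.9 CPM in LIN9 wt Sav1 wt, at 43.0, 36.1 and 43.0 in LIN9 wt Sav1 KO, at 51.9, 49.8 and 47.3 in LIN9 KO Sav1 wt and at 43.9, 40.5 and 42.3 in LIN9 KO Sav1 KO. Its groups did not overlap between Sav1 genotypes in either LIN9 background, with log2 fold changes of -0.50 (edgeR adjusted p = 0.317) and -0.23 (adjusted p = 0.465). Between LIN9 KO Sav1 KO and LIN9 wt Sav1 wt it was called lower (log2 -0.44, edgeR adjusted p = 0.00874). The counts cover the whole gene while 1 exon is removed, and the tissue holds cells without Cre, so these values check the labels in part only. The double knockout libraries in particular show no drop of Lin9 beyond their spread.

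Members differ widely in level, which was compared between genes only as CPM per kb of exonic length not shared with another gene. Over all genotypes Gata4 had the highest median, 83.6 CPM per kb over the 6 libraries of the first experiment (80.0 to 86.9) and of 83.7 over the 12 of the second (74.0 to 96.5). Nkx2-5 followed at 74.8 and 74.0 CPM per kb, and its range overlapped that of Gata4 in both experiments and that of Gata6 in the second. Gata6 came next at 38.0 and 39.1 CPM per kb, clear of the members below it. Per kb of the longest transcript Gata6 stood at 64.5 and 66.3 CPM, and its range then overlapped that of Nkx2-5 in both experiments. Tbx5 (14.3 and 14.3 CPM per kb), Myocd (11.1 and 15.8), Hand1 (9.88 and 11.1) and Mef2c (7.40 and 8.73) formed a middle range in which each neighbour overlapped the next, and Myocd was below Tbx5 by median in the first experiment and above it in the second. Hand2, at 4.32 and 4.51, and Isl1, at 1.72 and 1.54 CPM per kb, overlapped no neighbour. The place of Hand2 depends on the length used. Per kb of its 400 exonic bases outside an antisense gene it stood at 20.4 and 21.3 CPM, as described below. With the length of the longest transcript Isl1 stood at 2.71 and 2.43 CPM per kb, and its range overlapped that of Hand2 in both experiments. These medians mix genotypes, and Nkx2-5 and Myocd were lower in LIN9 KO. In LIN9 wt of the first experiment Nkx2-5 lay above Gata4, at a mean of 90.0 (87.9 to 93.2) against 82.4 (80.0 to 84.0) CPM per kb, and in LIN9 wt Sav1 wt the means were 86.3 and 84.0 with overlapping ranges. Myocd had the higher mean than Tbx5 in both of these groups, 15.6 against 14.6 and 22.5 against 13.6 CPM per kb, with overlap in the first experiment only. Mef2c has 15715 bases of annotated exon but 6277 in its longest transcript, and with that length its level was 18.5 and 21.8 CPM per kb, above the medians of Tbx5 and Myocd, whose ranges it overlapped.

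**Figure D1:**
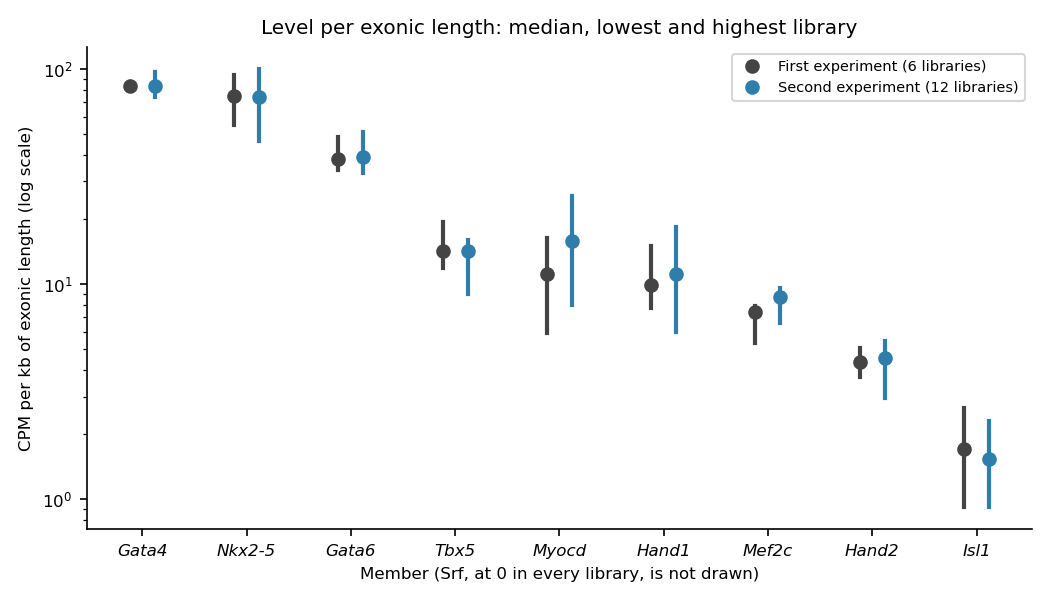
Level of 9 members as CPM per kb of exonic length, on a log axis, with the median as a point and the lowest and highest library as a line, for the first experiment (6 libraries) and the second (12 libraries), all genotypes together. Gata4 and Nkx2-5 lie highest at medians of 83.6 and 74.8 in the first experiment, and Isl1 lowest at 1.72.

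Srf and Hand2 need a word on what their rows count. Srf (ENSMUSG00000015605), the factor through which myocardin acts, had 0 counts in all 18 libraries, where 3 counts would have been 0.308 to 0.325 CPM in the first experiment and 0.983 to 1.12 in the second, a limit that covers counting error only. On GRCm38.p6 it lies at chr17:46548329-46556175, wholly inside the body of the antisense lincRNA Gm26904, and the 17 protein-coding genes within Gm26904 were all at 0 in every library, while Gm26904 itself collected 734 counts. The 0 can therefore not be read as absence of Srf RNA, and its cause was not tested. Hand2 (ENSMUSG00000038193) has 83.0% of its exonic bases under the body of the antisense gene Hand2os1, listed as AV026068 in the tables, and the counting is not stated to use strand. Per kb of the 400 exonic bases outside Hand2os1, a length chosen after the data were seen, Hand2 stood at 20.4 and 21.3 CPM per kb, next after Gata6. Gata6 has 2.95% of its exonic bases under an antisense gene, 1010001N08Rik, which was itself called higher in LIN9 KO of the first experiment (log2 0.44, edgeR adjusted p = 0.0112). On LIN9 loss in the second experiment 1010001N08Rik was not called, with Sav1 wt (log2 0.09, edgeR adjusted p = 0.833) or with Sav1 KO (log2 0.35, adjusted p = 0.297). The other 7 members have none under another gene.

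On LIN9 loss some members passed the threshold, in both directions. In the first experiment 5 of the 9 members tested passed an adjusted p of 0.05 (edgeR), against 20.9% of all 19752 genes: Myocd, Nkx2-5 and Hand1 were lower (9.78% of all genes) and Gata6 and Isl1 higher (11.1%). In the second experiment with Sav1 wt, 3 of 9 passed, against 23.2% of 17675 genes, with Myocd and Nkx2-5 lower (10.5% of all genes) and Gata6 higher (12.7%). With Sav1 KO, 3 of 9 passed against 23.4%, and Myocd, Nkx2-5 and Hand1 were lower (11.6% of all genes). The members' median log2 fold changes in these 3 comparisons were -0.02, -0.19 and -0.05, next to 0.02, 0.01 and 0.03 over all genes tested. At an unadjusted p under 0.05 (edgeR) there were 6, 3 and 4 members, against 32.1%, 33.4% and 34.6% of all genes. The groups did not overlap for 4, 5 and 4 members, against 36.5%, 35.1% and 41.1% of all genes. In the first experiment 2 of these were higher (18.4% of all genes) and 2 lower (18.1%), with Sav1 wt 3 were higher (18.3%) and 2 lower (16.8%), and with Sav1 KO 1 was higher (21.9%) and 3 lower (19.2%). In bulk tissue, fewer cells of a type and less RNA per cell cannot be told apart.

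**Figure D2:**
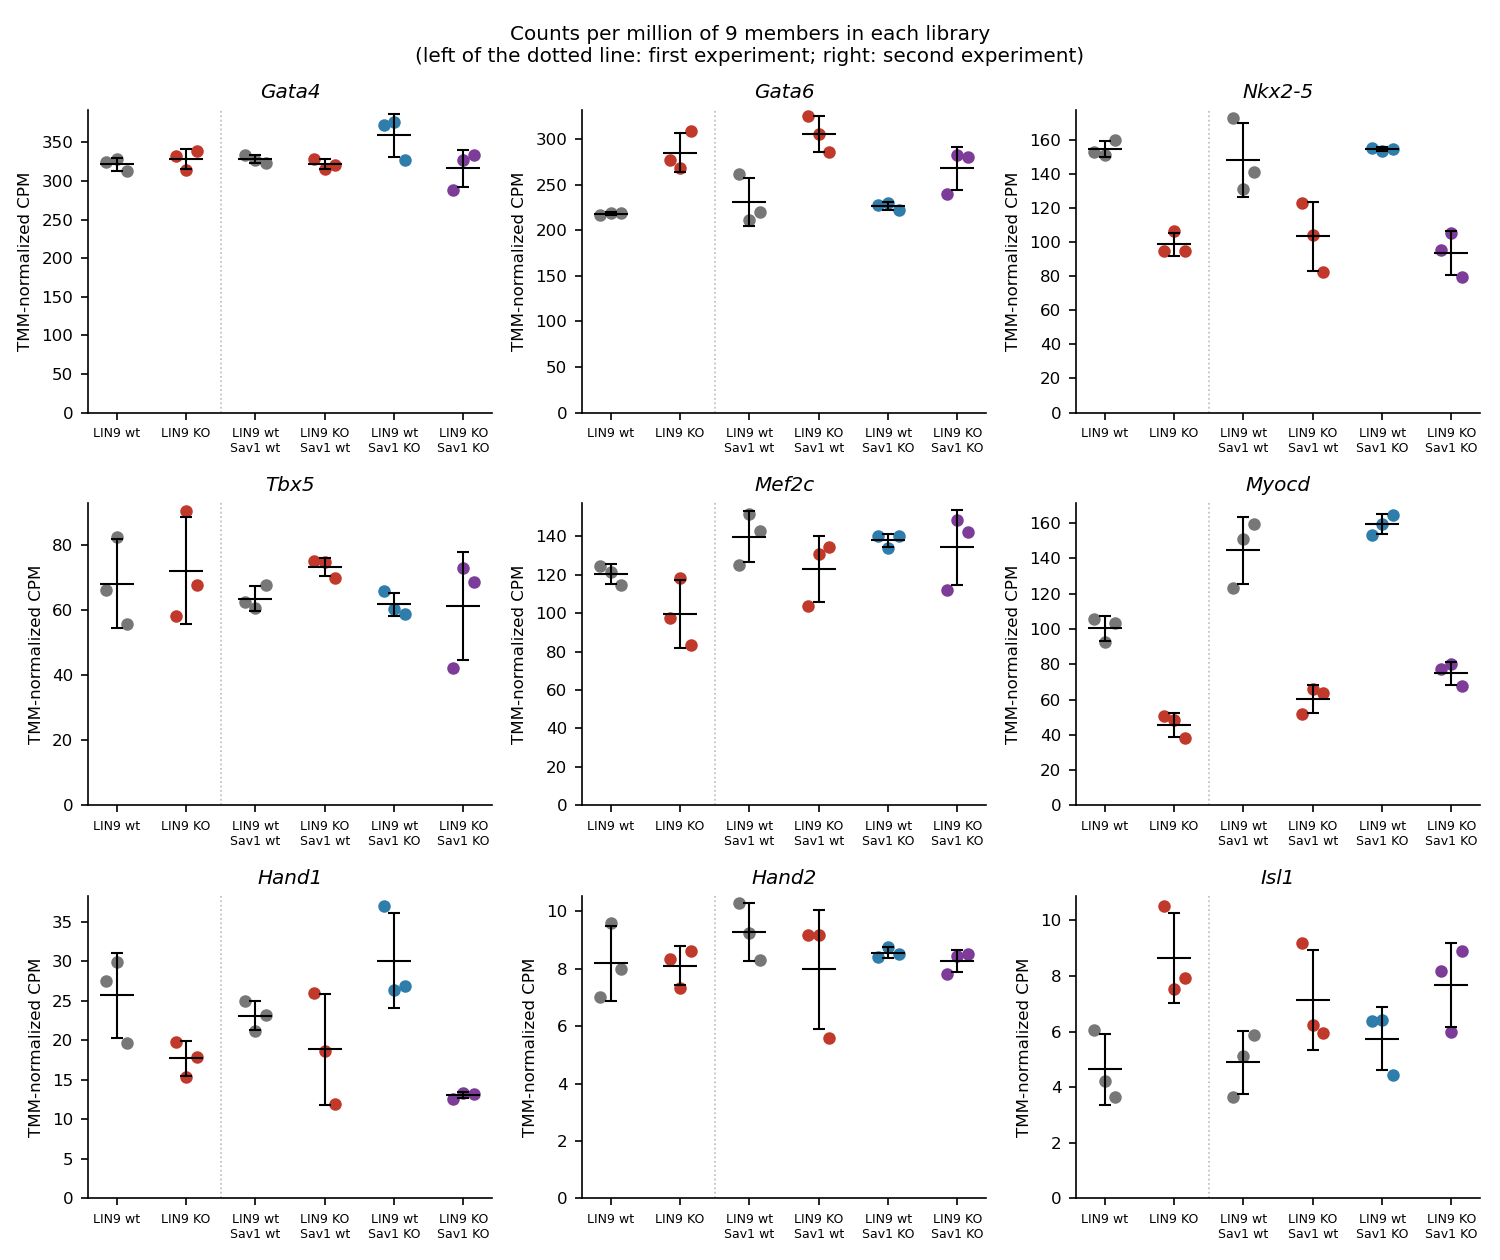
CPM of 9 members in each of the 18 libraries, on linear axes from 0, with points for libraries and bars for the mean and SD of 3. Myocd in the LIN9 KO groups lies between 38.0 and 79.9 CPM, below all LIN9 wt libraries of its experiment, while Gata4 stays between 289 and 377 throughout.

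Nkx2-5 (ENSMUSG00000015579, chr17:26838664-26845009), the homeobox factor at the head of the cardiac programme, was at 153, 151 and 160 CPM in LIN9 wt of the first experiment and at 94.8, 106 and 95 in LIN9 KO. In the second experiment it was at 173, 131 and 141 in LIN9 wt Sav1 wt, at 123, 104 and 82.7 in LIN9 KO Sav1 wt, at 155, 153 and 155 in LIN9 wt Sav1 KO and at 95.4, 106 and 79.6 in LIN9 KO Sav1 KO. No LIN9 KO library reached any LIN9 wt library of the same experiment. The log2 fold change was -0.65 (SE 0.099, edgeR adjusted p = 0.000283) in the first experiment, -0.52 (SE 0.131, adjusted p = 0.00484) with Sav1 wt and -0.72 (SE 0.132, adjusted p = 0.000238) with Sav1 KO. This call held in each of the 12 to 19 alternatives per comparison.

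Promoter windows are shown for Nkx2-5, which fell with loss of a MuvB subunit, and for Isl1, which was higher in LIN9 KO of the first experiment, a pair chosen after the values were seen. The sequences are from RefSeq on GRCm38.p6 and cover 200 bases that end 50 bases before the annotated start, 5′ to 3′ on the minus strand, at chr17:26841616-26841815 for Nkx2-5 and chr13:116309739-116309938 for Isl1. Capitals mark matches, on either strand, to the CHR element TTTGAA known from cell cycle promoters, the GATA sites AGATAA and TGATAA, the NKX2-5 site AAGTG, the TEAD site GGAATG, the CArG box CCWWWWWWGG or the MEF2 box YTAWWWWTAR (W is A or T, Y is C or T, R is A or G), none of which overlap here.
Nkx2-5: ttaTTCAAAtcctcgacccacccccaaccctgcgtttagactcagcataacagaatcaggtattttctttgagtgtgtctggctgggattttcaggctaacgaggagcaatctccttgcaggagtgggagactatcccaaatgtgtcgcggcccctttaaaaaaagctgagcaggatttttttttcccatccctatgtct
Isl1: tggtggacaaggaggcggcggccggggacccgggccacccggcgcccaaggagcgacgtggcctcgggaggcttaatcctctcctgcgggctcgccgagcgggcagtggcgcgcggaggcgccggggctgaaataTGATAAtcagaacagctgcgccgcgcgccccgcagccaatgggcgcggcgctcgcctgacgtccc
The Nkx2-5 window holds 1 CHR element, 247 bases before the start, read on the other strand, and no other match. The Isl1 window holds 1 TGATAA, 115 bases before the start, and no CHR element. Mef2c, not called on LIN9 loss, has the CHR element in 2 of its 3 windows (114 and 139 bases before the start). The Nkx2-5 window lies inside the gene span given above, because the RefSeq start used lies downstream of the annotated 5′ end of that span. Of 32851 promoter windows of this length, 13.6% hold the CHR element, 8.42% AGATAA, 6.74% TGATAA, 34.2% AAGTG, 10.7% GGAATG, 1.16% a CArG box and 2.42% a MEF2 box. A match is a run of letters and not a site shown to be bound. The promoter table has entries for 5 of the 10 members, and Gata4, Gata6, Tbx5, Hand1 and Myocd are missing from it.

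Myocd (ENSMUSG00000020542, chr11:65176561-65269989), the SRF coactivator of cardiac and smooth muscle genes, showed the largest drop among the members in the first experiment and with Sav1 wt. It was at 105, 92.3 and 103 CPM in LIN9 wt of the first experiment and at 50.6, 48.1 and 38.0 in LIN9 KO. In the second it was at 123, 151 and 160 in LIN9 wt Sav1 wt, at 51.5, 66.2 and 63.7 in LIN9 KO Sav1 wt, at 153, 160 and 165 in LIN9 wt Sav1 KO and at 77.3, 79.9 and 67.6 in LIN9 KO Sav1 KO. The LIN9 wt and LIN9 KO libraries stayed well apart in both Sav1 backgrounds. LIN9 KO lowered Myocd to 0.454 of LIN9 wt in the first experiment (log2 -1.14, SE 0.117, edgeR adjusted p = 1.14e-05), to 0.418 with Sav1 wt (-1.26, SE 0.118, adjusted p = 5.72e-09) and to 0.471 with Sav1 KO (-1.09, SE 0.116, adjusted p = 5.95e-08). Each alternative kept this call.

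Gata4 and Gata6 encode zinc-finger factors that partly stand in for each other in the heart. Gata4 (ENSMUSG00000021944) was at 312 to 328 CPM in LIN9 wt and 314 to 339 in LIN9 KO of the first experiment, and at 324 to 334, 316 to 329, 327 to 377 and 289 to 334 in LIN9 wt Sav1 wt, LIN9 KO Sav1 wt, LIN9 wt Sav1 KO and LIN9 KO Sav1 KO. Its log2 fold change on LIN9 loss was 0.03 (95% interval -0.19 to 0.25), -0.03 (-0.22 to 0.16) and -0.18 (-0.37 to 0.01) in the 3 comparisons, none of them called (edgeR adjusted p = 0.878, 0.873 and 0.169). Gata6 (ENSMUSG00000005836) went the other way from Nkx2-5 and Myocd, at 217, 220 and 219 CPM in LIN9 wt and 277, 269 and 309 in LIN9 KO. In the second experiment it was at 261, 211 and 220 in LIN9 wt Sav1 wt, at 326, 306 and 286 in LIN9 KO Sav1 wt, at 228, 230 and 222 in LIN9 wt Sav1 KO and at 240, 283 and 281 in LIN9 KO Sav1 KO. In each of these 3 pairings no LIN9 KO library came down to LIN9 wt. The increase was 1.31-fold in the first experiment (log2 0.39, SE 0.104, edgeR adjusted p = 0.0154) and 1.32-fold with Sav1 wt (log2 0.40, SE 0.101, adjusted p = 0.00357), and with Sav1 KO the log2 fold change of 0.24 was not called (adjusted p = 0.0836). Leaving out LIN9 wt replicate 1, 2 or 3 of the first experiment ended the call of that experiment at nearly the same fold change (log2 0.38, 0.39 and 0.39, adjusted p = 0.0774, 0.0513 and 0.0557, in a range of 0.0024 to 0.0774 over 12 alternatives). The call with Sav1 wt ended at a smaller fold change without LIN9 wt Sav1 wt replicate 2 (log2 0.31, adjusted p = 0.0594, in a range of 0.00108 to 0.0594 over 19). With the 6 libraries of the Sav1 KO groups alone, Gata6 passed there too (log2 0.24, adjusted p = 0.0494, in a range of 0.0494 to 0.337).

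Tbx5 (ENSMUSG00000018263), the T-box partner of NKX2-5 and GATA4, and Mef2c (ENSMUSG00000005583), the MADS-box factor of muscle genes, were not called. Tbx5 ranged from 42.2 to 90.5 CPM over the 18 libraries, with log2 fold changes on LIN9 loss of 0.08, 0.21 and -0.01 (edgeR adjusted p = 0.811, 0.325 and 0.959). Mef2c ranged from 83.3 to 151 CPM, with log2 fold changes of -0.27, -0.19 and -0.04 (adjusted p = 0.132, 0.281 and 0.848). Without LIN9 KO replicate 2, whose 118 CPM was the highest of its group, Mef2c was called lower in the first experiment (log2 -0.41, adjusted p = 0.0171, in a range of 0.0171 to 0.337 over 12 alternatives). With replicate numbers as a block Mef2c was called lower there as well (log2 -0.28, edgeR adjusted p = 0.0333), although that pairing did not hold in the first experiment.

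Hand1 (ENSMUSG00000037335), a basic helix-loop-helix factor of the left ventricle, was called lower in LIN9 KO of the first experiment and with Sav1 KO. It was at 27.5, 29.9 and 19.6 CPM in LIN9 wt and 19.8, 15.4 and 17.9 in LIN9 KO of the first experiment. In the second it was at 24.9, 21.2 and 23.2 in LIN9 wt Sav1 wt, at 25.9, 18.7 and 11.9 in LIN9 KO Sav1 wt, at 37.0, 26.3 and 26.9 in LIN9 wt Sav1 KO and at 12.6, 13.4 and 13.2 in LIN9 KO Sav1 KO. The groups overlapped in the first experiment and with Sav1 wt, and stood apart with Sav1 KO. The log2 fold change was -0.54 (SE 0.16, edgeR adjusted p = 0.0267), -0.28 (SE 0.204, adjusted p = 0.367) and -1.20 (SE 0.21, adjusted p = 0.000104). The first of these calls ended without LIN9 wt replicate 1 (log2 -0.49, adjusted p = 0.112), LIN9 wt replicate 2 (-0.41, 0.142) or LIN9 KO replicate 2 (-0.45, 0.089), in a range of 0.00281 to 0.142 over 12 alternatives, and Hand1 was called with Sav1 wt once LIN9 KO Sav1 wt replicate 1 was left out (log2 -0.60, adjusted p = 0.0373, in a range of 0.0373 to 0.831 over 19). Hand2, its relative in the right ventricle, lay between 5.59 and 10.3 CPM in all libraries, with log2 fold changes of -0.02, -0.20 and -0.05 (adjusted p = 0.971, 0.617 and 0.906). Hand2os1, which overlaps it, gave -0.52 in the first experiment (adjusted p = 0.056).

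Isl1 (ENSMUSG00000042258), the LIM-homeodomain factor of second heart field progenitors, was scarce, with 35 to 97 counts per library in the first experiment and 11 to 28 in the second. It was at 6.08, 4.22 and 3.64 CPM in LIN9 wt and at 10.5, 7.55 and 7.92 in LIN9 KO of the first experiment, groups that did not overlap, and rose 1.86-fold (log2 0.90, SE 0.221, edgeR adjusted p = 0.00883). In the second experiment it was at 3.65, 5.14 and 5.88 in LIN9 wt Sav1 wt and at 9.19, 6.23 and 5.96 in LIN9 KO Sav1 wt, with Sav1 KO groups at 6.39, 6.41 and 4.43 (LIN9 wt) and 8.18, 5.98 and 8.89 (LIN9 KO). The log2 fold changes there, 0.55 and 0.42, were not called (adjusted p = 0.208 and 0.33). Without LIN9 wt replicate 3 the call of the first experiment was lost (log2 0.75, adjusted p = 0.0532, in a range of 0.00047 to 0.0532 over 12 alternatives).

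**Figure D3:**
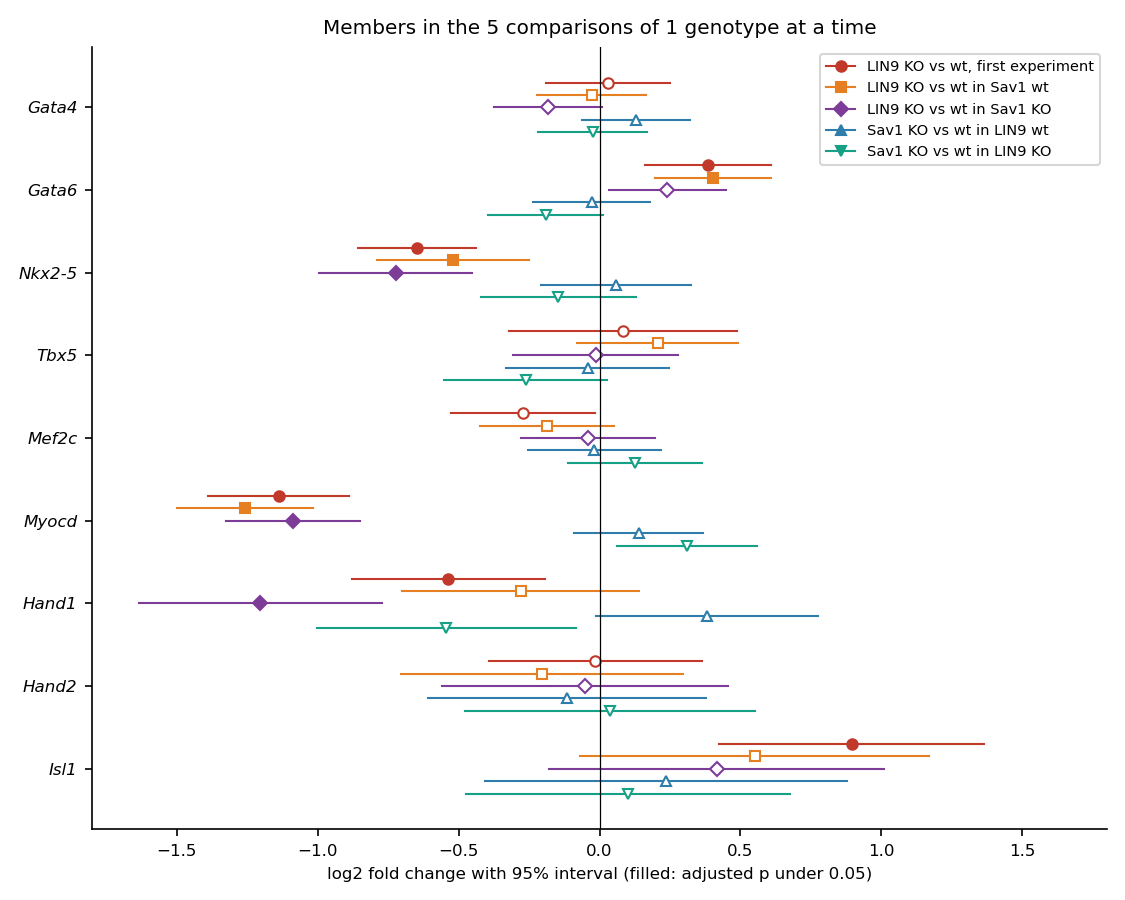
log2 fold change of 9 members with its 95% interval in the 3 comparisons of LIN9 KO with LIN9 wt and the 2 of Sav1 KO with Sav1 wt, filled where the edgeR adjusted p is under 0.05. Myocd lies at -1.14, -1.26 and -1.09 on LIN9 loss, and no Sav1 comparison has a filled point.

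The Sav1 comparisons asked what loss of Hippo restraint does to the same genes. In LIN9 wt, 0 of 9 members passed by edgeR, against 0.0170% of all genes called (0.0113% higher and 0.00566% lower), and 0 by DESeq2, which called 2 genes. At an unadjusted p under 0.05 there were 0 members, against 3.93% of all genes, and the members' median log2 fold change was 0.06 next to 7.97e-05 over all genes. Hand1 was the 1 member whose groups did not overlap (12.1% of all genes did not, 5.97% higher and 6.14% lower), at 26.3 to 37.0 CPM with Sav1 KO and 21.2 to 24.9 with Sav1 wt (log2 0.38, 95% interval -0.01 to 0.77). In LIN9 KO, 0 of 9 passed by edgeR, against 0.0113% of all genes called, and 0 by DESeq2, which called 77 of 17675 genes, and 2 had an unadjusted p under 0.05, against 11.8%, with a members' median of -0.02 next to 0.00132. Those were Myocd, with Sav1 KO 1.24-fold above Sav1 wt (log2 0.31, edgeR adjusted p = 0.294), and Hand1 (log2 -0.54, adjusted p = 0.331). Hand1 passed once LIN9 KO Sav1 wt replicate 3 was left out (log2 -0.78, adjusted p = 0.0463, in a range of 0.0463 to 1 over 19 alternatives). The groups of Myocd (67.6 to 79.9 against 51.5 to 66.2 CPM) and of Gata6 (240 to 283 against 286 to 326 CPM) did not overlap, 2 members against 15.1% of all genes (7.20% higher and 7.87% lower).

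The interaction asks whether the LIN9 effect differs between the Sav1 backgrounds, and 0 of 17675 genes (0.00%) passed, 0 by DESeq2 as well, with 1153 (6.52%) at an unadjusted p under 0.05. Among the members 0 passed and 1 was under an unadjusted p of 0.05. This was Hand1, with a log2 difference of -0.92 (SE 0.295, 95% interval -1.53 to -0.32, edgeR adjusted p = 0.68), and the members' median was -0.15 next to -0.00054 over all genes. So the stronger drop of Hand1 in Sav1 KO was not shown to differ from that in Sav1 wt. The double knockout was also set against LIN9 wt Sav1 wt, controls that the single knockouts share, and 3 of 9 members passed against 20.6% of all genes, all lower (9.96% of all genes): Myocd (log2 -0.95, edgeR adjusted p = 7.79e-07), Hand1 (-0.82, adjusted p = 0.00726) and Nkx2-5 (-0.67, adjusted p = 0.00069). Their groups did not overlap, nor did those of Isl1, 4 members in all against 37.4% of genes, and 5 members had an unadjusted p under 0.05, against 32.3%. The members' median was -0.06 next to 0.03. Gata6 (log2 0.21, adjusted p = 0.141) passed once LIN9 wt Sav1 wt replicate 1 was left out (log2 0.31, adjusted p = 0.0393, in a range of 0.0393 to 0.495 over 19 alternatives).

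Other transcription factors of the heart changed on LIN9 loss as well. Of the 18 listed relatives and other heart factors, 17 were tested in the first experiment, and 5 were called higher and 8 lower, against 11.1% and 9.78% of all genes (median log2 fold change -0.41, 0.02 over all genes). Irx4, which keeps ventricular from atrial identity, was at 37.7 CPM in LIN9 KO and 109 in LIN9 wt (log2 -1.53, SE 0.107, edgeR adjusted p = 5.15e-07). Irx3 (log2 -1.25), of the conduction system, and Prox1 (-0.89) were lower too, while Gata5, a further cardiac GATA gene, rose 2.01-fold (log2 1.01, adjusted p = 0.000125). In the second experiment 3 of 16 were higher and 6 lower with Sav1 wt (12.7% and 10.5% of all genes), and 3 higher and 7 lower with Sav1 KO (11.8% and 11.6%). Irx4 (-1.52 and -1.32), Irx3 (-1.14 and -1.06) and Gata5 (1.01 and 0.84) kept their directions there, and Hey2 was among the largest changes with Sav1 wt (-0.74). The medians of the list were -0.08 and -0.07.

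Of 20 listed names of cofactors and chromatin partners 17 were tested. Mrtfa and Mrtfb are listed also under their older names Mkl1 and Mkl2, and only the older names have rows. In the first experiment 1 was called higher and 4 lower (median -0.14), against 11.1% and 9.78% of all genes. Ldb3, which is on the list although known as a Z-disc protein, fell from 714 to 356 CPM (0.499 of LIN9 wt, SE of the log2 value 0.143, edgeR adjusted p = 0.000167), Hdac9, a repressor of MEF2, from 71.9 to 36.5 (log2 -0.98), Smyd1, a muscle methyltransferase, from 481 to 312 (-0.63), and Smarcd3, the cardiac BAF subunit, from 73.5 to 54.7 (-0.43). With Sav1 wt the same 4 genes were called lower and 0 higher (median 0.08), against 10.5% and 12.7% of all genes, at log2 -1.08 for Ldb3, -0.70 for Smyd1, -0.69 for Hdac9 and -0.52 for Smarcd3. With Sav1 KO, 1 was higher and 6 lower (median -0.17), against 11.8% and 11.6% of all genes, with Ldb3 at log2 -1.13, Smyd1 at -0.64, Smarcd3 at -0.56 and Hdac9 at -0.43. Zfpm1, the GATA cofactor FOG1, was at 0 in every library and lies inside another annotated gene.

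Textbook targets of these factors split in both directions. Of 30 listed targets 26 were tested, and 7 were higher and 11 lower in the first experiment (median -0.11), 7 and 11 with Sav1 wt (-0.29) and 7 and 12 with Sav1 KO (-0.38). Of all genes, 11.1% were higher and 9.78% lower in the first experiment, 12.7% and 10.5% with Sav1 wt and 11.8% and 11.6% with Sav1 KO. Nppa, the atrial natriuretic peptide gene that NKX2-5, GATA4 and TBX5 activate, rose from 470 to 1410 CPM in the first experiment (log2 1.59, SE 0.157, edgeR adjusted p = 7.97e-06), and by log2 1.76 and 2.04 in the second. Nppb, its neighbour in the genome, rose by log2 1.63, 1.35 and 1.63. Ckm, the muscle creatine kinase, fell from 107 to 20.7 CPM (log2 -2.37, SE 0.243, adjusted p = 0.000387), and Myl2, the ventricular myosin light chain, from 4610 to 1660 (-1.48, adjusted p = 3.06e-05). Among SRF targets, the immediate early gene Fos rose from 4.89 to 21.6 CPM (log2 2.14) and the smooth muscle gene Tagln from 285 to 746 (log2 1.39). The genes named are those that changed most, and other SRF targets on the list, such as Acta2, are not among them. So Fos and Tagln do not stand for SRF targets as a set. In the second experiment Ckm (-2.44 and -2.23), Myl2 (-1.65 and -1.48) and Fos (2.07 and 2.33) kept their directions. Tagln was among the largest changes with Sav1 wt (1.07) and Bmp10, a growth factor of trabeculae, with Sav1 KO (1.25). Being named for only 1 Sav1 background does not mean that a gene was unchanged in the other. Acta1, Actc1, Tnnc1 and Xirp1 were at 0 throughout. Of 155 listed genes with a position, 10 were at 0 in all libraries, and 9 of these lie wholly within another gene, as does Tcf21, which had 5519 counts over the 18 libraries. Among genes named in the text, Nppa, Tagln, Irx3 and Smarcd3 have 69.2%, 67.9%, 53.8% and 53.1% of their exonic bases under another gene, and the marker Myh7 75.3%.

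**Figure D4:**
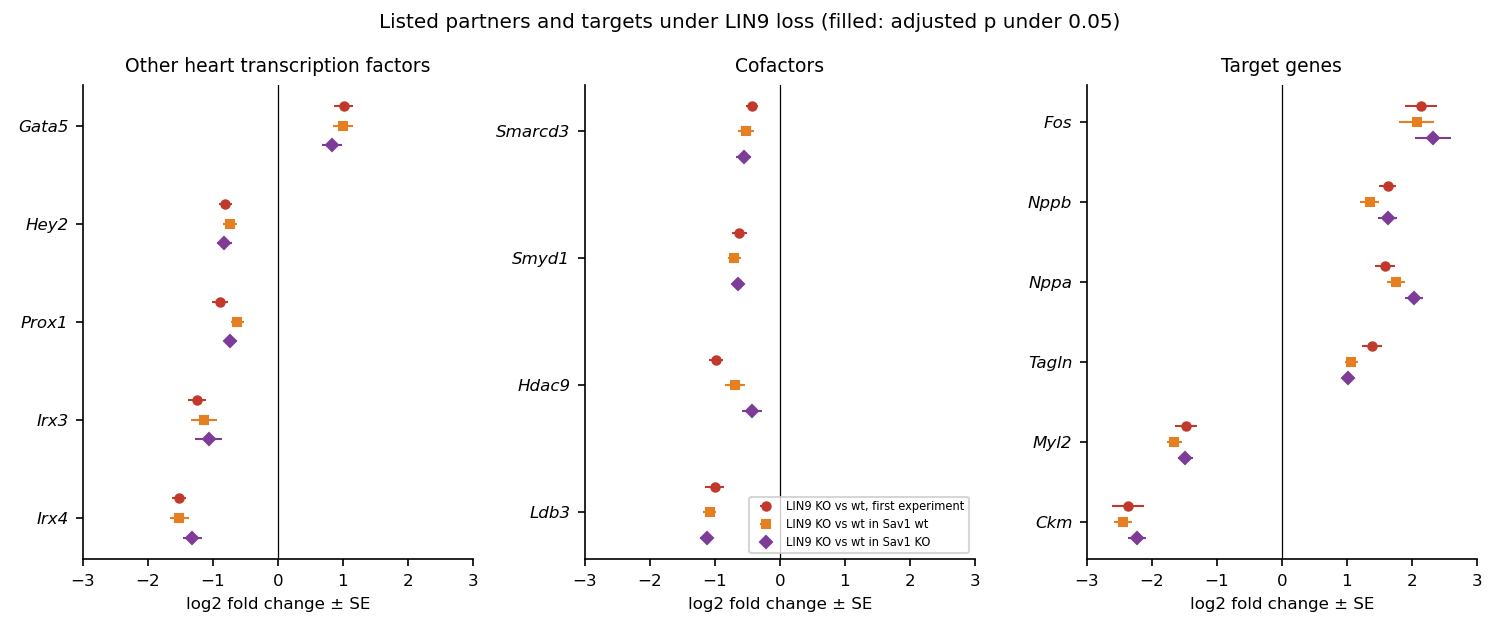
log2 fold change with SE of the heart transcription factors, cofactors and targets named for the first experiment or for Sav1 wt, in the 3 comparisons of LIN9 KO with LIN9 wt, filled where the edgeR adjusted p is under 0.05. Irx4, Ldb3 and Ckm lie left of 0 in each comparison (Ckm at -2.37, -2.44 and -2.23), and Gata5, Nppa, Nppb, Fos and Tagln right of it.

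In the double knockout against LIN9 wt Sav1 wt, 2 other heart factors were higher and 7 lower (median -0.22), 1 cofactor higher and 3 lower (-0.11), and 7 targets higher and 10 lower (-0.30), against 10.7% and 9.96% of all genes. Irx3 (log2 -1.44), Irx4 (-1.33), Gata5 (0.87) and Prox1 (-0.65) led the factors. Ldb3 (-0.98), Smyd1 (-0.66) and Smarcd3 (-0.41) were the genes of the cofactor list that fell and Tcf12 (0.28) the one that rose. Fos (2.23), Ckm (-2.18), Myl2 (-1.54), Nppa (1.52), Nppb (1.41) and Tnni3 (-1.03) led the targets. In the Sav1 comparisons and the interaction none of the genes on these 3 lists was called by edgeR.

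Markers of cell types were also called on LIN9 loss. The lists share genes, so their counts are not independent. Tnnt2, Myh6, Myh7 and Tnnc1 are both targets and cardiomyocyte markers. Acta2, Tagln, Cnn1 and Myh11 are also smooth muscle markers, and Nppa, Myl7 and Bmp10 also atrial markers. Smyd1 is both a cofactor and a target, and Hopx both a heart factor and a target. Of 10 cardiomyocyte markers 9 were tested, and 6 were called lower and 0 higher in each of the 3 comparisons, with medians of -0.80, -0.76 and -0.74, against 9.78%, 10.5% and 11.6% of all genes called lower. Their summed level was 20200, 21000 and 19600 CPM in LIN9 wt and 10200, 14500 and 9090 in LIN9 KO of the first experiment. In the second it was 22700, 24500 and 24600 in LIN9 wt Sav1 wt, 14100, 12600 and 12600 in LIN9 KO Sav1 wt, 25800, 25600 and 26600 in LIN9 wt Sav1 KO and 12000, 14800 and 16100 in LIN9 KO Sav1 KO. Myh7 was the most abundant, at means of 3680 and 4800 CPM, and Tnnc1 was at 0, so the tissue carries ventricular muscle RNA in all libraries. Nkx2-5 and Myocd were thus low in the libraries whose cardiomyocyte markers were low, and the part of cell composition in their drop was not tested.

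Markers of other cells were higher, where 11.1%, 12.7% and 11.8% of all genes were called higher in the 3 comparisons. Of 10 fibroblast and cushion markers 9, 8 and 10 were called higher in the 3 comparisons (medians 0.98, 0.78 and 0.92), with Col3a1 the most abundant. Their sum was 3250, 2910 and 2760 CPM in LIN9 wt against 5810, 6090 and 5810 in LIN9 KO of the first experiment. In the second the sums were 3640, 4170 and 3910 in LIN9 wt Sav1 wt, 7420, 8000 and 6550 in LIN9 KO Sav1 wt, 3780, 4300 and 3590 in LIN9 wt Sav1 KO and 6650, 7460 and 8170 in LIN9 KO Sav1 KO. Epicardial markers, with Upk3b the most abundant, were called higher for 7 of 8 in each comparison (medians 1.02, 1.08 and 1.15). They had sums of 311, 285 and 286 against 531, 495 and 591 CPM in the first experiment. Their sums in the second were 260, 266 and 270 in LIN9 wt Sav1 wt, 484, 465 and 561 in LIN9 KO Sav1 wt, 222, 251 and 272 in LIN9 wt Sav1 KO and 440, 467 and 463 in LIN9 KO Sav1 KO. These lists bear on Gata6, which epicardial and mesenchymal cells are known to express, and the part of such cells in its higher values was not tested. The part of cell composition in the higher Isl1 values was not tested either.

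Blood markers were higher as well, against the same shares of all genes (11.1%, 12.7% and 11.8%). Erythroid markers, with the embryonic globin Hbb-y the most abundant and Alas2 at 0, were higher for 9 of 9 in each comparison (medians 3.06, 2.81 and 2.97). Their sum was 6300, 4640 and 4300 CPM in LIN9 wt against 62800, 33100 and 24100 in LIN9 KO of the first experiment. In the second it was 2870, 2250 and 2380 in LIN9 wt Sav1 wt, 14500, 20800 and 26600 in LIN9 KO Sav1 wt, 1870, 1680 and 2260 in LIN9 wt Sav1 KO and 20300, 12800 and 6960 in LIN9 KO Sav1 KO. Macrophage markers, with Lyz2 the most abundant, were higher for 9, 8 and 9 of 10 (medians 1.05, 1.06 and 1.40). They had sums of 124, 126 and 134 against 241, 238 and 260 CPM in the first experiment. In the second their sums were 130, 141 and 130 in LIN9 wt Sav1 wt, 282, 253 and 252 in LIN9 KO Sav1 wt, 113, 109 and 126 in LIN9 wt Sav1 KO and 270, 289 and 302 in LIN9 KO Sav1 KO.

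**Figure D5:**
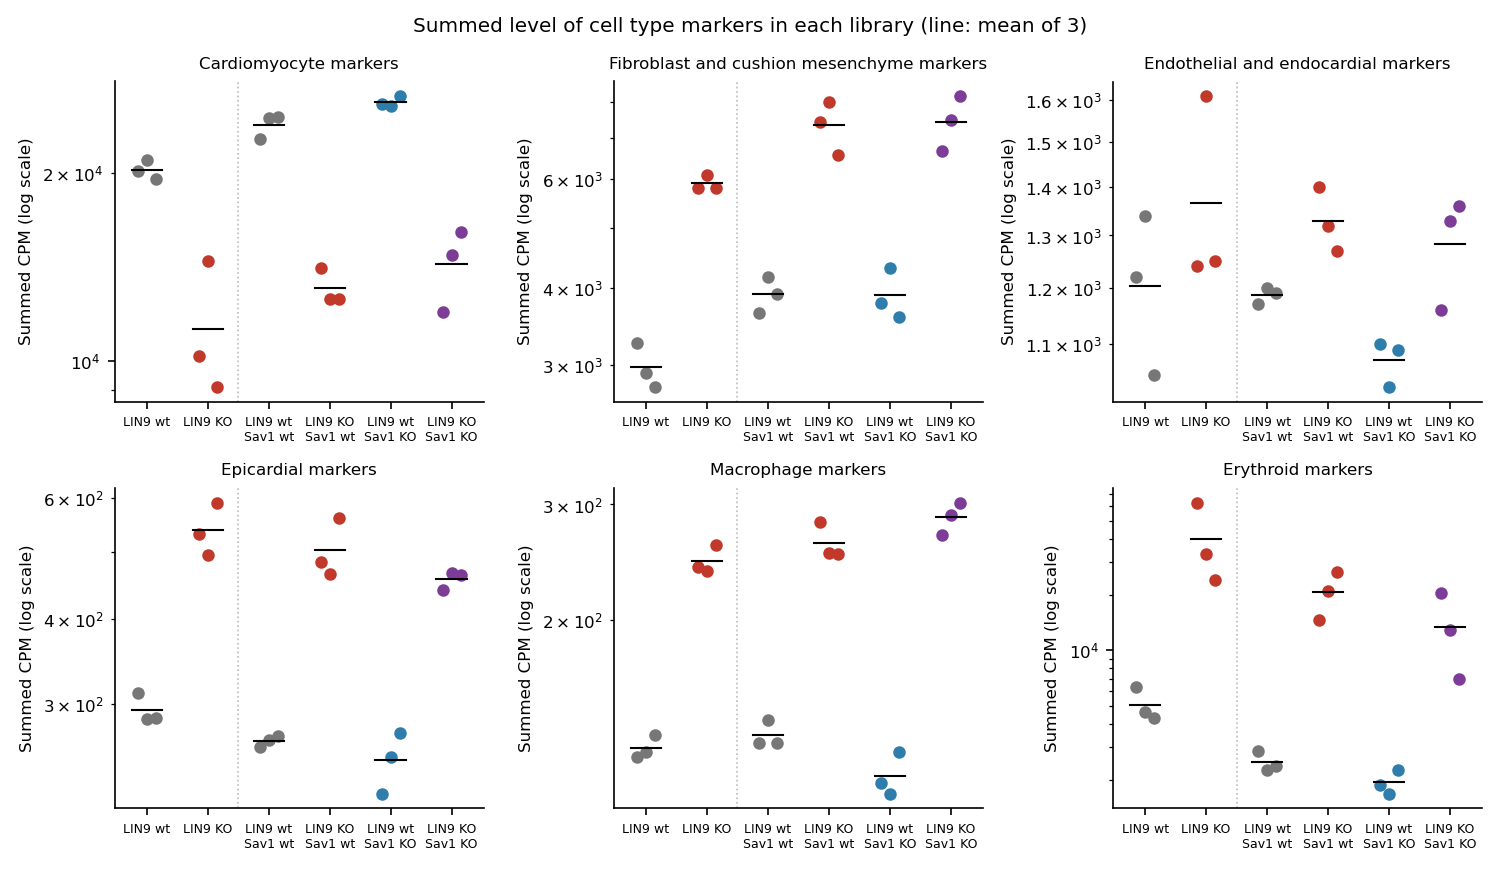
Summed CPM of 6 marker lists in each of the 18 libraries on log axes, with a line at the mean of 3. Cardiomyocyte markers are lower in the LIN9 KO groups (9090 to 16100) than in LIN9 wt (19600 to 26600), and the erythroid sum reaches 62800.

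For the remaining lists the shares of all genes are again 11.1%, 12.7% and 11.8% higher and 9.78%, 10.5% and 11.6% lower. Endothelial and endocardial markers gave 3 higher and 1 lower of 10 in the first experiment, 3 and 1 with Sav1 wt and 5 and 2 with Sav1 KO (medians 0.08, 0.19 and 0.26), with Pecam1 and Npr3 the most abundant. Smooth muscle markers gave 4 higher of 8 in the first experiment, 4 higher and 1 lower with Sav1 wt and 3 higher and 1 lower with Sav1 KO (medians 0.80, 0.80 and 0.75). Acta2 was the most abundant. Their sums in the first experiment were 1620, 1790 and 1540 CPM in LIN9 wt and 2190, 2260 and 2440 in LIN9 KO. Without Acta2 they were 684, 739 and 629 against 1240, 1170 and 1470. With Sav1 wt the sums were 1590, 1540 and 1530 against 1980, 1750 and 1600. With Sav1 KO they were 1760, 1830 and 1790 against 1840, 1730 and 1950. Of 8 atrial markers, 2, 3 and 3 were higher (medians 0.40, 0.31 and 0.09), and Myl4 was the most abundant. Second heart field markers gave 1 of 6, 2 of 5 and 1 of 5 higher (medians 0.39, 1.56 and 0.52), with Foxc1 the most abundant, Foxc2 at 0 and 5 of the 8 under a mean of 1 CPM. Nerve and neural crest markers, with Tubb3 at 0, gave 0 of 6, 1 lower of 6 and 0 of 6. In the double knockout against LIN9 wt Sav1 wt 6 of 9 cardiomyocyte markers were lower (9.96% of all genes), and 8 of 10 fibroblast, 6 of 8 epicardial, 8 of 9 erythroid and 8 of 10 macrophage markers higher (10.7% of all genes), with 2 higher and 2 lower of 10 endothelial, 4 higher of 8 smooth muscle, 2 higher of 8 atrial, 1 higher of 5 second heart field and 0 of 6 nerve and neural crest markers. In the Sav1 comparisons 0 markers of any list were called by edgeR.

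Genes whose levels followed a member most closely over the 18 libraries, each experiment centred on its own mean, were found among 12117 genes. These correlations are a description, and the part of the genotypes in them was not tested. Myocd was followed by Sorbs2, Lmo7 and Tnni3k (Pearson r = 0.983, 0.982 and 0.979), and Nkx2-5 by Nfs1, Prkaca and Ndufs7 (0.972, 0.970 and 0.958). Gata6 was followed by Gm6375, Gm37486 and Traf4 (0.960, 0.955 and 0.955), Mef2c by Ryr2, Secisbp2l and Ank3 (0.941, 0.910 and 0.909), and Hand1 by Nacc1, Midn and Parp1 (0.932, 0.929 and 0.926). Tbx5 went with Specc1l, Mogs and Clstn1 (0.925, 0.866 and 0.855), Isl1 with Thbs1, Traip and Fbln5 (0.858, 0.856 and 0.853), Gata4 with Zmpste24, Usp27x and Sfr1 (0.828, 0.783 and 0.755), and Hand2 with Ddx56, Vps26a and Phf20-ps (0.789, 0.784 and 0.777). Usp27x, Sfr1 and Phf20-ps followed their members closely in the second experiment (0.825, 0.843 and 0.866) and less so in the first (0.404, 0.408 and 0.360).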

How the data were processed

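Polyadenylated RNA of 18 libraries was sequenced on a NextSeq 500 (NEBNext Ultra II). The authors mapped reads with TopHat (2.1.0) and Bowtie2 to mm10 and reduced each sample to the mappable reads of the smallest. Reads were counted per Ensembl gene of GRCm38.p6 with summarizeOverlaps. Neither overlap mode nor strand use is given. The deposited values used here are these counts. The authors' own fold change tables and the 4 ChIP samples were not used.

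Identifiers listed more than once (4 in each table) were kept once. Genes with a mean count above 1 were tested with edgeR's quasi-likelihood test (robust, edgeR 4.0.16, limma 3.58.1, R 4.3.3) on TMM-normalized counts, with all 12 libraries of the second experiment in 1 fit and Benjamini-Hochberg adjustment over all genes at 0.05. The procedure was tested on simulated data. Gene bodies and exons are from GENCODE M21. Alternatives were DESeq2 (1.42.0) size factors or Wald tests, library totals alone, other filters, a replicate block, fits of the 2 groups alone, and leaving out each library. The level order was also taken with the longest transcript, the whole exon union, and, chosen after seeing the data, exonic length outside other genes' bodies.

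Members and lists were chosen with earlier results of these data known. Per comparison and list, the genes named come from all those called if 4 or fewer, otherwise the 4 (6 for targets) that changed most among those called with separate groups and a mean of 5 CPM or more. Hand2os1, 1010001N08Rik and Gm26904 are named as genes that overlap members, and for each member the 3 genes of highest correlation.

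Replicate numbers were taken to pair libraries where the deviations of same-numbered libraries from their group means correlated above 0.1 in each pair. This pairing held between LIN9 wt Sav1 wt and LIN9 KO Sav1 wt (0.257 to 0.637), between LIN9 wt Sav1 wt and LIN9 wt Sav1 KO (0.102 to 0.33) and between LIN9 KO Sav1 wt and LIN9 wt Sav1 KO (0.116 to 0.358). It rests on these values alone. It did not hold in the first experiment (0.0576 to 0.285) or for any pair with the double knockout.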

Additional observations from a re-analysis of the deposited data

Results flagged for a closer look

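The fold changes of Hand1 on Sav1 loss had opposite signs in the 2 LIN9 backgrounds of the second experiment, and neither was called (edgeR adjusted p = 0.999 in LIN9 wt and 0.331 in LIN9 KO). With LIN9 wt, all 3 Sav1 KO libraries were above the mean of Sav1 wt, and the ratio of mean CPM was 1.3. With LIN9 KO, all 3 Sav1 KO libraries were below the mean of Sav1 wt, and the ratio was 0.692, but the groups overlapped, since LIN9 KO Sav1 wt replicate 3 (11.9 CPM) was below all 3 Sav1 KO libraries (12.6 to 13.4 CPM). The interaction tests this difference. For Hand1 it gave an unadjusted p of 0.00419 and an edgeR adjusted p of 0.68 over 17675 genes, in a range of 0.0507 to 1 over 18 alternatives, so the difference did not pass. Hand1 was singled out after its values were seen. The Hand1 counts behind this are 32 to 110 per library. Whether cell composition has a part in it was not tested.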

How the results depend on the processing

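Of 1125 refitted member fold changes over all alternatives, 14 changed a call, 8 lost and 6 gained, and 0 called values reversed. Counts of genes called in the LIN9 comparisons stayed within 1.5 times, except that leaving out a library gave 2722 (without LIN9 wt replicate 3) to 4223 in the first experiment. The called members there numbered 3 to 5 when a library was left out. With Sav1 wt they numbered 2 to 4, in the double knockout 3 to 4, and in Sav1 KO against Sav1 wt with LIN9 KO 0 to 1.

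The few genes called on Sav1 loss depended on the processing, and the cause was not tested. With LIN9 wt, 3 genes became 22 without a filter and 31 in the 6 libraries alone, and 0 to 7 with a library left out. With LIN9 KO, 2 genes became 309 without a filter, 77 by DESeq2 and 0 in the 6 libraries alone, and 0 to 377 with a library left out, the highest without LIN9 KO Sav1 wt replicate 3. The interaction gave 17 genes without a filter and 0 to 64 with a library left out.

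The replicate block gave 84 genes for Sav1 loss in LIN9 KO, where the pairing did not hold. Under the block Mef2c passed in the first experiment (log2 -0.28, adjusted p = 0.0333), where the pairing did not hold either, and no other member's call changed.

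In the level order 5 of 9 members kept their rank with the longest transcript, and 4 of 9 with exonic length outside other genes' bodies, in both experiments. Isl1 rests on 11 to 28 counts per library in the second experiment.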
